A study of Rattus norvegicus with 20 samples.

Results

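The genes of the proteasome were followed across rat brain arrays from animals that breathed isoflurane or oxygen alone. Members were all genes whose symbol is Psma, Psmb, Psmc, Psmd, Psme, Psmf or Psmg followed by a digit and that have a probe set naming that gene only. Each gene was represented by its brightest probe set, by mean log2 signal over all 20 arrays. This gave 44 genes of the 14217 named on the array, and all 44 passed the filter on dim probe sets, as did 10315 genes in all. Of the 44, 16 encode core subunits, 21 encode regulatory subunits and 7 encode assembly factors. Psmb6, which encodes a catalytic core subunit, and Psme3, which encodes a nuclear activator, lie only on probe sets that name several genes, so they have no value here. Psmc3ip and Psme3ip1 share only the start of the symbol and encode no subunit.

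The proteasome is the protease that breaks down most short-lived and damaged proteins in the cytosol and nucleus. Its core particle, 20S, is a barrel in which outer rings of alpha subunits guard the entrance and inner rings of beta subunits hold the cutting sites. The regulatory particle, 19S, caps the barrel. Its lid removes ubiquitin from the tagged protein, and its base, with a ring of ATPases, unfolds the protein and feeds it into the core. In immune and stressed cells, inducible beta subunits can take the place of the constitutive ones and form the immunoproteasome. Neurons depend on this system for protein quality control and for the turnover of synaptic proteins.

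The animals were Sprague Dawley males aged 20 weeks, with weights from 250 to 300 g. Of these, 10 breathed oxygen alone and 10 breathed 2% isoflurane in oxygen. Isoflurane is a volatile anaesthetic, and the dose was 1.4 MAC, where MAC is the unit of anaesthetic potency. Exposure lasted 15 min and tissue was taken 6 h later, with 1 array per rat, so that p-values measure the spread between animals. According to the design text the profiles were collected to build gene networks. Males of 1 strain, 1 dose and 1 time after exposure limit what the groups can stand for. In such bulk tissue, fewer cells of a type and less RNA per cell cannot be told apart.

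All arrays are labelled brain cortex, yet they fell into 2 sets by Pcp2, a gene of cerebellar Purkinje cells. Its linear signal lay between 12435.8 and 18438.0 on 11 arrays (6 oxygen, 5 isoflurane) and between 22.0 and 1632.5 on the other 9 (4 oxygen, 5 isoflurane). These are called the high Pcp2 and the low Pcp2 arrays and no array lay between those ranges. The summed linear signal of 5 cerebellar markers was 38678 to 52239 on the high arrays, against 668 to 1567 on the low oxygen arrays and 145 to 4871 on the low isoflurane arrays. The summed signal of 4 cortical markers (Fezf2, Emx1, Tbr1 and Neurod6) was 897 to 1454 on the high arrays, 2945 to 3204 on the low oxygen arrays and 1901 to 2364 on the low isoflurane arrays. Of these, Fezf2 had a log2 signal of 1.31 to 6.96 on the high arrays and 8.69 to 9.43 on the low ones. Fezf2 was therefore dim in the high set, where most of the summed signal came from the other cortical markers. Among the low arrays, isoflurane replicates 2, 4, 5 and 6 stood apart. Each had a mean correlation of 0.978 to 0.98 with the others of these 4, and of 0.89 to 0.906 with the remaining low arrays. Their log2 3'/5' ratio of Gapdh and Actb control probe sets, a measure of RNA quality and labelling, was 1.28 to 1.59, against 0.75 to 1.23 on the low oxygen arrays and 0.75 on isoflurane replicate 10. In the high set that ratio was 0.71 to 0.96 in oxygen and 0.63 to 0.99 in isoflurane. Differences below are in log2 signal, from limma with Benjamini-Hochberg adjustment over 18625 probe sets, and "called" means an adjusted p under 0.05.

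Nfe2l1, a transcription factor that restores proteasome gene expression when proteasomes fail, and its relative Nfe2l2 bind antioxidant response elements. The letters TGACNNNGC are a core of that element, and they were searched on both strands in the 300 bases around each gene start (RefSeq, assembly GRCr8). Promoters were found for 40 of the 44 genes. The letters occurred in 7 of them (17.5%), against 12.2% of 27457 promoters, and the looser form TGANNNNGC, which contains every such match, occurred in 20 (50%) against 40.4%. The GC box GGGCGG occurred in 28 (70%) against 34.9%. ATTGG, the CCAAT box read on either strand, occurred in 20 (50%) against 37.7%, and TATAAA in 4 (10%) against 14.3%. Shown here are 60 bases upstream of the start of the 3 genes with such a match that differed between isoflurane and oxygen on the low arrays (Psmb2, Psmd9 and Psme4), and of Psmb5, a catalytic subunit. Capitals mark the TGACNNNGC match, which reads in reverse complement for Psme4. A match is only a match of letters.
Psmb2, chr5:144254965-144255024, plus strand: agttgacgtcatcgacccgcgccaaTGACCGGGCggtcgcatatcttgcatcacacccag
Psmb5, chr15:32047405-32047464, minus strand: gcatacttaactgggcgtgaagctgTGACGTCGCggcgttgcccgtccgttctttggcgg
Psmd9, chr12:39018307-39018366, minus strand: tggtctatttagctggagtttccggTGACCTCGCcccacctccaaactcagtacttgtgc
Psme4, chr14:108706563-108706622, plus strand: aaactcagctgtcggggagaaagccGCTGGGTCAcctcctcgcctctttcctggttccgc
The match begins 68 bases before the start of Psmb2, 60 before that of Psmb5, 77 before that of Psmd9 and 55 before that of Psme4. Psmd9 has another match 124 bases before its start.

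The proteasome genes were bright and even. The median of their mean log2 signals was 10.96, against 8.85 over all probe sets tested. Within a group and a Pcp2 set the SD between rats had a median of 0.17 over the 44 genes, against 0.26 over all probe sets tested and 0.19 over the 4744 probe sets with a mean log2 signal of 10 or more. Psmd12, a lid subunit, varied least (SD 0.09) and Psme4, which encodes the activator PA200, varied most (SD 0.31). The dimmest of the 44 were Psmb8 and Psmb9, inducible core subunits, with signals between 6.58 and 8.0 on all 20 arrays. The map of all 44 genes by array shows where single rats and single genes departed from this evenness.

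**Figure D1:**
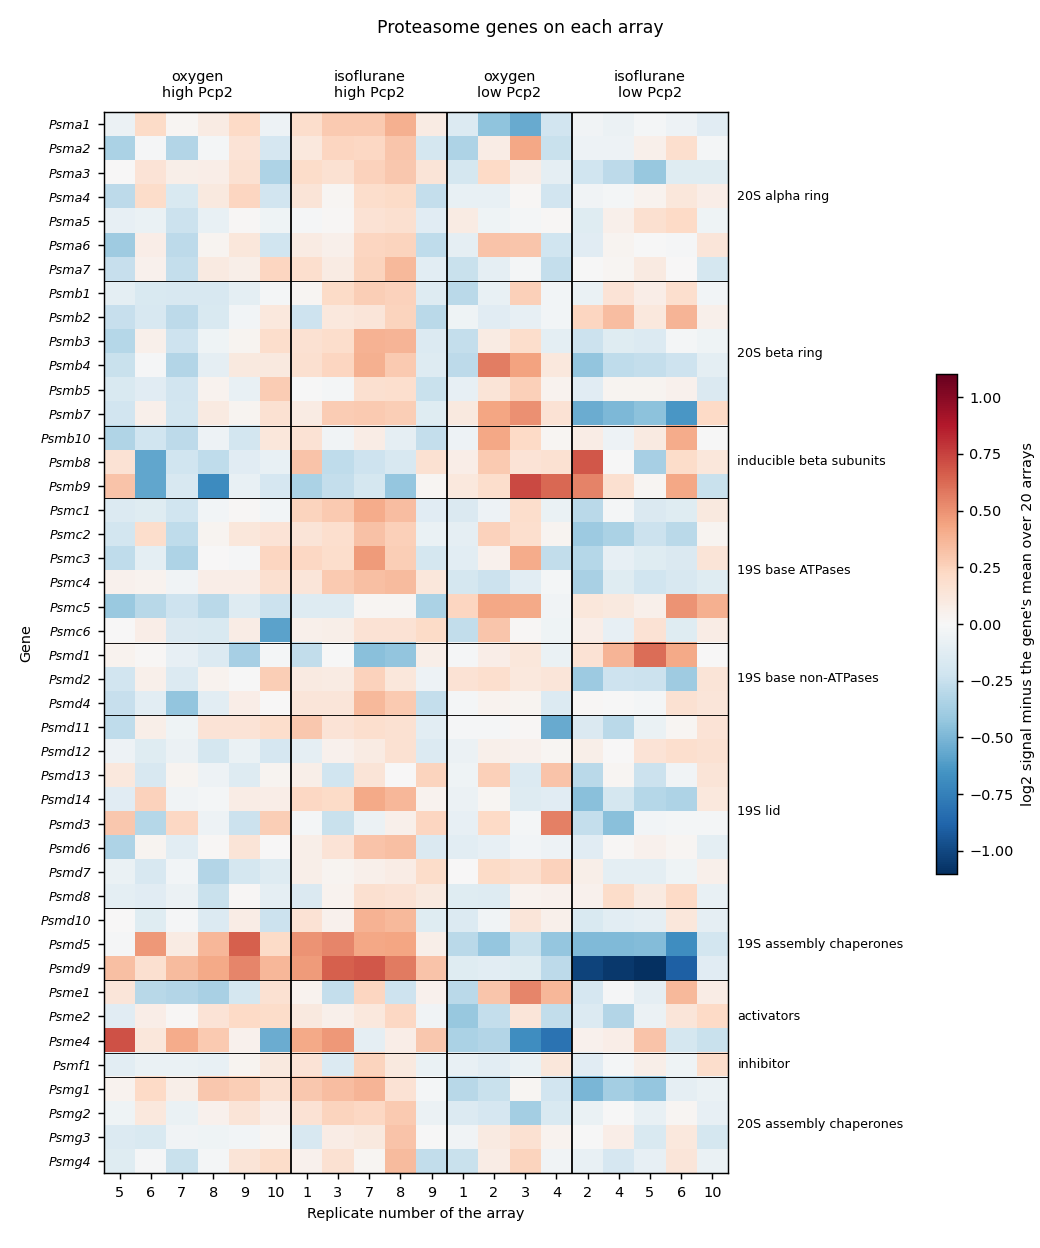
Log2 signal of each of the 44 proteasome genes (rows, by role) on each of the 20 arrays (columns, by group and Pcp2 set, with replicate numbers), minus the gene's mean over all 20 arrays. The rows of Psmd5 and Psmd9 are above their mean (red) on the high Pcp2 arrays and below it (blue) on the low ones, except Psmd5 on oxygen replicate 5, which at 10.14 lies just under its mean, and Psmd9 is lowest on isoflurane replicates 2, 4, 5 and 6.

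The first comparison asked what isoflurane changed with both sets of arrays in 1 fit, the set being a covariate. Psma1 (probe set 1398778_at), an alpha subunit of the core, rose, and it was the only one of the 44 genes called, where 7.37% of all probe sets tested were called (2.58% higher, 4.79% lower). Its log2 signal ran from 10.45 to 11.22 with a median of 10.95 in oxygen, and from 10.88 to 11.39 with a median of 11.03 in isoflurane. The pooled ranges overlapped, while every one of the 10 isoflurane arrays lay above the oxygen mean of its own set. The difference was 0.23 with an SE of 0.06 (1.17-fold, limma adjusted p = 0.0308). Without the 4 isoflurane arrays that stood apart, limma called no member and no probe set (0%), with 3016 probe sets at an unadjusted p under 0.05. The difference of Psma1 was then 0.19 (adjusted p = 0.243), close to that over all arrays. Without the set as a covariate, no member was called where 0.397% of probe sets were (0.0805% higher, 0.317% lower). The call was also lost when oxygen replicate 2 or 3, or isoflurane replicate 2, 3, 4, 5, 6 or 8, was left out alone, with differences of 0.194 to 0.251 over all arrays left out in turn. Leaving out isoflurane replicate 9 raised the number of members called to 5.

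By role, the differences in this fit were small and mostly above 0. Over the 44 genes, 31 differences were above 0, the median was 0.07 and 8 had an unadjusted p under 0.05, while the median over all probe sets tested was 0. Without the 4 arrays that stood apart, 40 of 44 were above 0 with a median of 0.12. With quantile normalization 33 of 44 were above 0. With arrays centred on their medians, 20 of 44 were above 0, but the median of all probe sets shifted by -0.07. The members' median minus that of all probe sets stayed at 0.07. With that centring 20.6% of all calls were higher, against 35% as deposited. Core genes ran from -0.21 (Psmb7) to 0.23 (Psma1) with a median of 0.08. Regulatory genes ran from -0.17 (Psmd3, a lid subunit) to 0.28 (Psme4) with a median of 0.08. Assembly genes ran from -0.20 (Psmd9) to 0.15 (Psmg2) with a median of 0.01. Psmb1, a beta subunit without a cutting site, differed by 0.18 with an SE of 0.07 (adjusted p = 0.102), and Psmd8, which encodes a lid subunit, by 0.16 with an SE of 0.06 (adjusted p = 0.0926). Psmb2, another beta subunit without a cutting site, differed by 0.20 with an SE of 0.075 (adjusted p = 0.0965). None of these passed the test. In the base, Psmd4, a ubiquitin receptor, differed by 0.19 (adjusted p = 0.129) and the ATPase Psmc1 by 0.14 (adjusted p = 0.268). The catalytic subunits Psmb5 and Psmb7 differed by -0.02 (adjusted p = 0.894) and -0.21 (adjusted p = 0.311). The inducible subunits Psmb8, Psmb9 and Psmb10 differed by 0.06, -0.11 and 0.05, with adjusted p of 0.795, 0.659 and 0.743. The activators Psme1, Psme2 and Psme4 differed by -0.03, 0.08 and 0.28, with adjusted p of 0.9, 0.561 and 0.199, and the inhibitor Psmf1 by 0.07 (adjusted p = 0.469). The median size of a difference was 0.09 over the 44 genes, against 0.12 over the 4744 bright probe sets.

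Within the high Pcp2 arrays no proteasome gene and no probe set at all was called between 5 isoflurane and 6 oxygen arrays (0% called by limma, with 2376 probe sets at an unadjusted p under 0.05). Of the 44 genes, 41 had differences above 0, with a median of 0.15 against 0 over all probe sets tested, and 12 had an unadjusted p under 0.05. Either other scaling gave nearly the same count, 41 of 44 with quantile normalization and 42 of 44 with arrays centred on their medians. All 6 base ATPases, all 7 alpha subunits and all 6 constitutive beta subunits were among the 41. Their medians were 0.22, 0.18 and 0.20. The exceptions were Psmd1, a base scaffold subunit, at -0.12, Psmd3 at -0.04 and Psmb9 at a value that rounds to 0. In simulated data a log2 change of 0.25 was recovered in 0% of cases in this set. That simulation drew on all probe sets tested, whose median SD was 0.26, against 0.17 over the 44 genes. The share therefore need not hold for the 44 genes, for which recovery was not tested.

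Psmc1 (probe set 1398792_at), a base ATPase, had the largest difference of the 44 in this set. On the high oxygen arrays it ran from 11.25 to 11.49 with a median of 11.39. On the isoflurane arrays it was 11.72, 11.76, 11.88 and 11.81 in replicates 1, 3, 7 and 8, and 11.35 in replicate 9. The first 4 lay above every oxygen array and replicate 9 lay among them. The difference was 0.32 with an SE of 0.09 (adjusted p = 0.331). Psmd7, a lid subunit, was the only member whose groups did not overlap here, where 0.988% of probe sets tested did not. It was 11.46, 11.43, 11.45, 11.48 and 11.6 on the isoflurane arrays and 11.07 to 11.37 with a median of 11.23 on the oxygen arrays, a difference of 0.24 with an SE of 0.07 (adjusted p = 0.331).

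The rats of the high set differed in how far the genes lay above the oxygen mean. The median over the 44 genes of log2 signal minus the oxygen mean of the set was 0.27 in isoflurane replicate 8, 0.25 in replicate 7, 0.16 in replicate 3, 0.14 in replicate 1 and -0.06 in replicate 9. Among oxygen arrays of this set it ran from -0.11 to 0.10. The 4 isoflurane arrays above 0 lay above all 6 oxygen arrays, and replicate 9 lay among them. The log2 3'/5' ratio tended to be lower where this median was higher. It was 0.63 and 0.64 on isoflurane replicates 8 and 7, the 2 highest arrays. On isoflurane replicate 9 and oxygen replicate 5, which were among the 3 lowest of the 11, it was 0.99 and 0.96. Oxygen replicate 10 departed from this, with a ratio of 0.93 and a median of 0.07. The part of RNA quality in these differences was not tested beyond a fit with the ratio as a covariate, in which the median difference over the 44 genes was 0.09. Left out alone, isoflurane replicate 9 raised the median to 0.19 and the number of members called from 0 to 2.

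**Figure D2:**
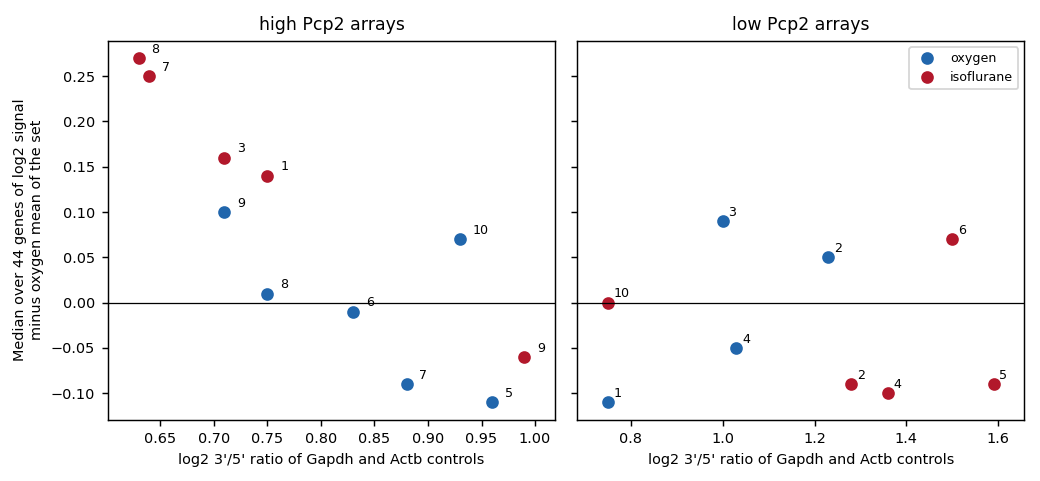
Median over the 44 proteasome genes of log2 signal minus the oxygen mean of the same Pcp2 set (vertical axis) against the log2 3'/5' ratio of Gapdh and Actb control probe sets (horizontal axis), 1 point per array with its replicate number, high Pcp2 arrays on the left and low Pcp2 arrays on the right. On the left, isoflurane replicates 7 and 8 have the lowest ratios (0.64 and 0.63) and the highest medians (0.25 and 0.27), while on the right no isoflurane array exceeds 0.07.

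Within the low Pcp2 arrays 5 of the 44 genes were called between 5 isoflurane and 4 oxygen arrays (11.4%), where 18.6% of all probe sets tested were called (11.2% higher, 7.42% lower). Psmb2 and Psme4 rose. Psmb7, which encodes the core subunit with trypsin-like activity, Psmd2, a scaffold subunit of the base, and Psmd9, an assembly chaperone of the base, fell. The median over the 44 genes was -0.06, with 26 differences below 0, against a median of 0 over all probe sets tested. With arrays centred on their medians, 40 were below 0, where the median of all probe sets was -0.21. By role, 6 of 7 assembly factors, 5 of 6 base ATPases, 4 of 6 constitutive beta subunits and all 3 inducible ones were below 0, while 5 of 7 alpha subunits were above it.

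Psmb7 (probe set 1367656_at) was 12.12, 12.45, 12.52 and 12.17 on oxygen replicates 1 to 4. On isoflurane replicates 2, 4, 5 and 6 it was 11.47, 11.52, 11.56 and 11.37, and on replicate 10 it was 12.23. The 4 arrays that stood apart lay below every oxygen array, and replicate 10 lay among them. The difference was -0.68 with an SE of 0.17 (1.6-fold lower, limma adjusted p = 0.0203).

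Psmd9 (probe set 1368184_at) showed the same layout. It was 8.65, 8.67, 8.65 and 8.5 in oxygen, 7.77, 7.72, 7.69 and 7.89 on the 4 isoflurane arrays that stood apart, and 8.66 on replicate 10. Again only replicate 10 overlapped the oxygen arrays. The difference was -0.67 with an SE of 0.20 (1.59-fold lower, adjusted p = 0.0362). A dimmer Psmd9 probe set fell short of the test at -0.57 with an SE of 0.35 (adjusted p = 0.272).

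Psmd2 (probe set 1398858_at) was 11.88, 11.9, 11.83 and 11.85 in oxygen, 11.32, 11.49, 11.48 and 11.33 on the 4 arrays that stood apart and 11.86 on replicate 10. Here too replicate 10 sat among the oxygen arrays and the other 4 below them. The difference was -0.37 with an SE of 0.11 (1.29-fold lower, limma adjusted p = 0.0416). With quantile normalization it was -0.3 and not called (limma adjusted p = 0.0813).

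For the 2 genes that rose, the groups did not overlap at all. Psmb2 (probe set 1398786_at) was 11.35, 11.27, 11.31 and 11.37 in oxygen and 11.63, 11.74, 11.51, 11.77 and 11.45 on isoflurane replicates 2, 4, 5, 6 and 10, a difference of 0.30 with an SE of 0.09 (1.23-fold, adjusted p = 0.0443). Psme4 (probe set 1368818_at) was 8.75, 8.77, 8.41 and 8.28 in oxygen and 9.14, 9.17, 9.41, 8.9 and 8.85 in isoflurane, a difference of 0.54 with an SE of 0.15 (1.46-fold, adjusted p = 0.0332). One other Psme4 probe set gave 0.63 with an SE of 0.19 (adjusted p = 0.0387), and another gave 0.03 with an SE of 0.28 (adjusted p = 0.946). Psma1 and Psmg2, an assembly chaperone of the core, also had groups without overlap, which makes 4 of 44 genes where 13.2% of probe sets tested had none. Their differences of 0.28 (adjusted p = 0.0668) and 0.18 (adjusted p = 0.206) did not pass the test.

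These calls were not kept without the 4 arrays that stood apart. Without them, the low set held 1 isoflurane array, isoflurane replicate 10, assumed in that fit to vary like the oxygen arrays, and no member was called. There the difference of Psmd9 was 0.04, that of Psmb7 -0.08 and that of Psmd2 -0.01, near 0. Psme4 stood at 0.30 and Psmb2 at 0.12, with replicate 10 above every oxygen array for both. The count of 5 also moved by over 1.5 times without isoflurane replicate 2, 4, 5 or 6, or oxygen replicate 2, 3 or 4. With each array left out in turn it ran from 0 to 10, reaching 10 without isoflurane replicate 10. The calls of Psmb2, Psmd2 and Psmd9 were each lost in 8 of these 9 fits. Psmb7 lost its call in 6 and Psme4 in 5. Adding the 3'/5' ratio as a covariate left no member called. The ratio ran with the group here, at 1.28 to 1.59 on the 4 arrays and 0.75 to 1.23 in oxygen. The summed cortical markers also moved with the group, at 1901 to 2364 in isoflurane (2251 on replicate 10) and 2945 to 3204 in oxygen. These ranges did not overlap. The summed cerebellar markers were 145 to 234 on the 4 arrays that stood apart, 668 to 1567 in oxygen and 4871 on replicate 10. The part of either sum in the result was not tested. The choice of scaling mattered as well, because the median of all probe sets shifted by -0.21 when arrays were centred on their medians. On that scale 8 members were called, all lower, against 2 higher and 3 lower as deposited, and over all probe sets 28% of the calls were higher against 60.2% as deposited.

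The difference between the sets in what isoflurane did was tested directly, as isoflurane minus oxygen in the high set less the same in the low set. Of the 44 genes 6 were called, all positive (13.6%), where 10.2% of all probe sets tested were called (2.58% positive, 7.61% negative). They were Psmb7 and Psmb4 of the beta rings, Psmc2 of the base ATPases, Psmd2 of the base, Psmd7 of the lid and the chaperone Psmd9. Psmb7 differed between the sets by 0.85 with an SE of 0.20 (limma adjusted p = 0.0128), from 0.17 on the high arrays and -0.68 on the low ones. Psmd9 differed by 0.85 with an SE of 0.21 (adjusted p = 0.0157), from 0.18 and -0.67. Neither within-set difference of the high arrays was itself called.

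Psmb4, a beta subunit without a cutting site, differed between the sets by 0.74 with an SE of 0.19 (adjusted p = 0.0213). On the low arrays it was 12.38, 13.23, 13.11 and 12.78 in oxygen and 12.23, 12.39, 12.4, 12.44 and 12.56 in isoflurane, while on the high arrays it was 12.34 to 12.77 with a median of 12.61 in oxygen and 12.84, 12.9, 13.06, 12.95 and 12.52 in isoflurane. In the low set every isoflurane array lay below 3 of the 4 oxygen arrays, and in the high set 4 of 5 lay above all oxygen arrays. Psmd7 differed by 0.43 with an SE of 0.10 (adjusted p = 0.0139), but its dimmer probe set gave -0.14 with an SE of 0.15 (adjusted p = 0.59). On the low arrays Psmc2 was 12.71, 13.06, 12.99 and 12.84 in oxygen and 12.41, 12.46, 12.57, 12.51 and 12.84 in isoflurane, and on the high arrays 12.53 to 13 with a median of 12.89 in oxygen and 12.95, 12.99, 13.13, 13.07 and 12.73 in isoflurane. The ranges overlapped in both sets, in the low set through isoflurane replicate 10. Psmc2 differed by 0.50 (adjusted p = 0.0437) and Psmd2 by 0.47 (adjusted p = 0.0408). Of the 20 fits that left out 1 array, 14 lost the call of Psmc2 and 16 that of Psmd2. With quantile normalization Psmd2 was not called either (limma adjusted p = 0.0847).

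Over all 44 genes the median of this difference was 0.20, with 37 above 0, against a median of 0 over all probe sets tested. With arrays centred on their medians the median of all probe sets shifted by 0.25 and 14 members were called, all positive. On that scale 2840 of all probe sets were called positive and 1059 negative, so 72.8% of all calls were positive, against 25.3% as deposited. None of the 44 was called without the 4 arrays that stood apart, where the difference of Psmb4 was 0.58 and that of Psmd7 0.35, while that of Psmb7 was 0.25, that of Psmc2 0.22, that of Psmd9 0.14 and that of Psmd2 0.11. None was called with the 3'/5' ratio as a covariate either, where Psmb4 stood at 0.72, Psmd7 at 0.46, Psmb7 at 0.58, Psmd9 at 0.51, Psmc2 at 0.38 and Psmd2 at 0.30. Leaving out oxygen replicate 2 or oxygen replicate 3 left 3 calls, and leaving out isoflurane replicate 10 gave 10.

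**Figure D3:**
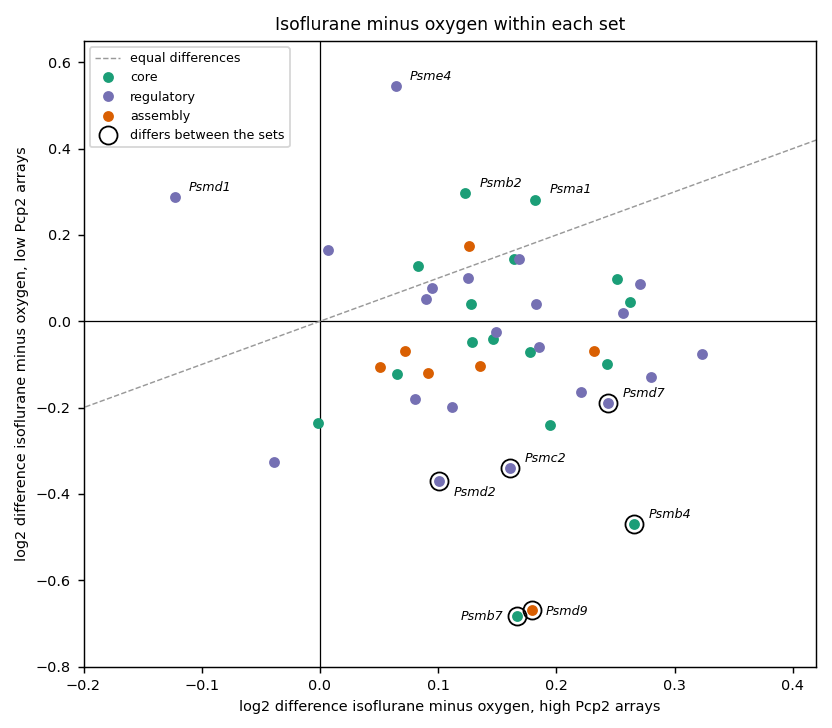
Log2 difference isoflurane minus oxygen on the high Pcp2 arrays (horizontal axis) and on the low Pcp2 arrays (vertical axis) for each of the 44 proteasome genes, coloured by class, with rings around the 6 genes whose difference between the sets was called and a dashed line of equal differences. Most points lie right of 0, and Psmb7 and Psmd9 lie lowest, at -0.68 and -0.67 on the low arrays.

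The sets of arrays themselves differed more widely than the groups did. With the group as a covariate, 15 of the 44 genes were called between high and low Pcp2 arrays (34.1%), where 60.8% of all probe sets tested were called (36% higher, 24.8% lower). Of the 15, 10 were higher on the high Pcp2 arrays and 5 were lower. The median over the 44 genes was 0.05, against 0.10 over all probe sets tested, and the median size of a difference was 0.13 against 0.31 over the bright probe sets. Among bright probe sets 62.2% were called. By role, 4 of 7 assembly factors were called, all higher, against 4 of 16 core genes and 7 of 21 regulatory genes. In oxygen alone 10 of the 44 were called, 6 higher and 4 lower, where 46.4% of probe sets were (27.5% higher, 18.9% lower), with 15 of 44 differences above 0 and a median of -0.09. In isoflurane alone 16 were called, 14 higher and 2 lower, with 34 of 44 above 0 and a median of 0.13, where 55.4% of probe sets were (31% higher, 24.3% lower).

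Psmd9 and Psmd5, chaperones that help build the ATPase ring of the base, had the largest differences of the 44. They were also the only members whose 2 sets did not overlap, where 18.8% of probe sets tested did not. Psmd9 was 8.96 to 9.47 with a median of 9.2 on the 11 high arrays and 7.69 to 8.67 with a median of 8.5 on the 9 low ones, a difference of 0.96 with an SE of 0.14 (1.95-fold, limma adjusted p = 3.8e-06). The difference was 0.53 between the oxygen arrays alone and 1.38 between the isoflurane arrays alone. A dimmer Psmd9 probe set differed by 0.30 with an SE of 0.22 (adjusted p = 0.24), so the 2 probe sets disagree in size.

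Psmd5 (probe set 1372267_at) was 10.14 to 10.81 with a median of 10.58 on the high arrays and 9.47 to 9.95 with a median of 9.73 on the low arrays, a difference of 0.76 with an SE of 0.09 (1.69-fold, adjusted p = 2.39e-07). Its difference was alike within each group, 0.65 in oxygen and 0.86 in isoflurane. Psmd10, the remaining chaperone of the base and known as gankyrin, differed by 0.08 with an SE of 0.08 (adjusted p = 0.373). Of the chaperones that build the alpha ring, Psmg1 was higher by 0.45 with an SE of 0.07 (adjusted p = 2.2e-05) and its partner Psmg2 by 0.24 with an SE of 0.06 (adjusted p = 0.0013). Psmg3 and Psmg4, which form the other such pair, differed by -0.02 and 0.06 and were not called.

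In the core, the alpha subunits Psma1 and Psma3 were higher on the high Pcp2 arrays. Psma1 was 10.94 to 11.39 with a median of 11.2 on the high arrays and 10.45 to 10.98 with a median of 10.88 on the low ones. Only the dimmest high arrays reached into the low range. The difference was 0.36 with an SE of 0.06 (1.28-fold, adjusted p = 3.07e-05), at 0.41 in oxygen and 0.31 in isoflurane. Psma3 differed by 0.24 with an SE of 0.08 (adjusted p = 0.0186), but by 0.02 in oxygen alone and 0.45 in isoflurane alone. None of the 6 constitutive beta subunits was called, with differences between -0.15 (Psmb2) and 0.14 (Psmb3). The groups differed beneath that value. Psmb7 was lower on the high arrays in oxygen alone, at -0.31 (adjusted p = 0.0393), and higher in isoflurane alone, at 0.54 (adjusted p = 0.00969). Psmb4 and Psmb3 were called higher in isoflurane alone, at 0.45 (adjusted p = 0.00265) and 0.31 (adjusted p = 0.0211). In oxygen alone they stood at -0.29 and -0.03, and neither was called. In isoflurane, 4 of the 5 low arrays are those that stood apart, with Psmb7 at 11.37 to 11.56, against 12.23 on replicate 10. Without those 4 arrays the difference between the sets was -0.245 for Psmb7, -0.138 for Psmb4 and 0.04 for Psmb3. Psmb5, the chymotrypsin-like subunit and the main target of proteasome inhibitor drugs, differed by -0.04 with an SE of 0.07 (adjusted p = 0.69).

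The inducible beta subunits went the other way, all 3 with differences below 0. Psmb9 was 6.58 to 7.59 with a median of 7.08 on the high arrays and 7.03 to 8.0 with a median of 7.47 on the low ones. The ranges overlapped over part of their length. The difference was -0.54 with an SE of 0.14 (1.45-fold lower, adjusted p = 0.0025). Psmb10 was lower on the high arrays, at -0.22 with an SE of 0.09 (adjusted p = 0.0291), a call lost when oxygen replicate 2, oxygen replicate 3, isoflurane replicate 6 or isoflurane replicate 9 was left out. Psmb8 differed by -0.26 with an SE of 0.13 (adjusted p = 0.0912). The summed linear signal of 6 microglial markers, all measured, moved with this difference, at 1884 to 3257 on the high arrays and 3622 to 5761 on the low ones. Their part in the result was not tested. Of 6 tested antigen presentation and interferon genes only Irf1, an interferon-responsive transcription factor, was called, and it was higher on the high arrays, by 0.65 with an SE of 0.12 (adjusted p = 8.68e-05).

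**Figure D4:**
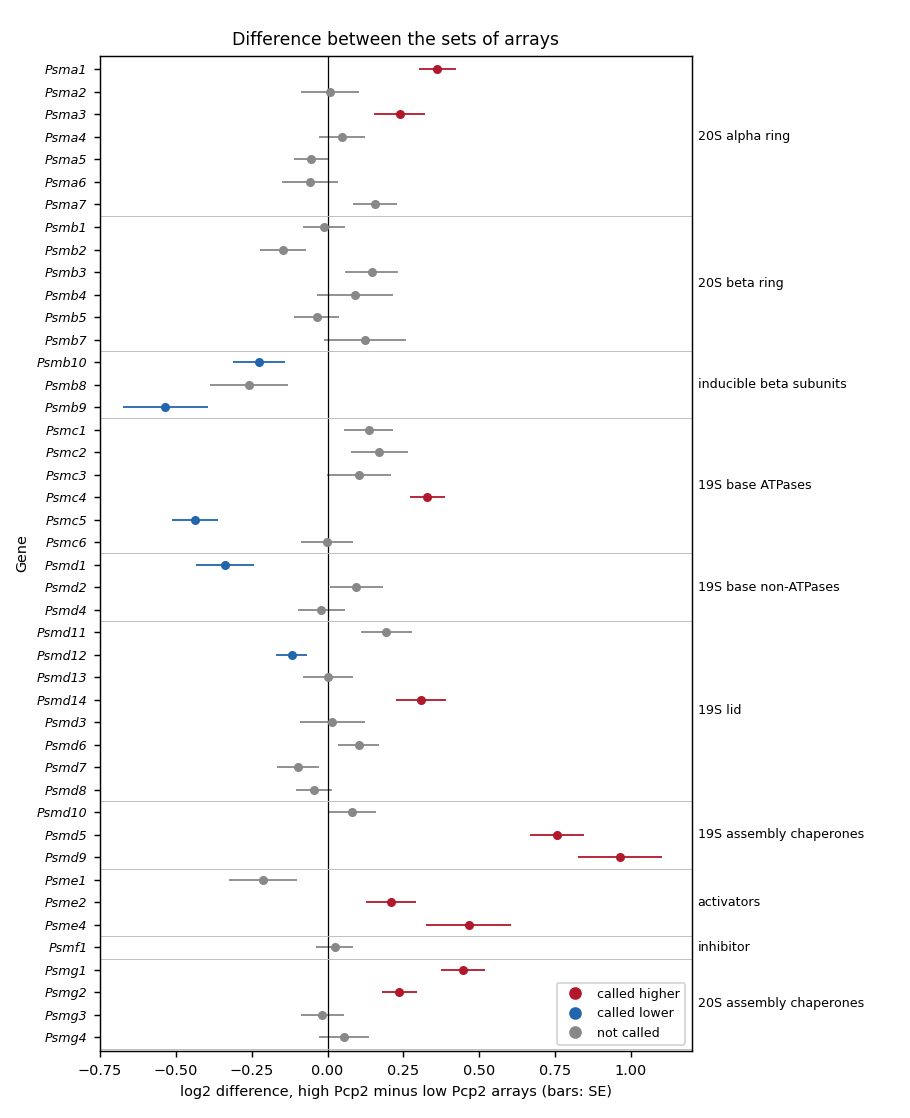
Log2 difference between high and low Pcp2 arrays for each of the 44 proteasome genes, ordered by role, with bars of 1 SE, red for the 10 genes called higher, blue for the 5 called lower and grey for the rest. Psmd9 (0.96) and Psmd5 (0.76) lie farthest right, and Psmb9 (-0.54) and Psmc5 (-0.44) farthest left.

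The 19S genes split. Among base ATPases, Psmc4 was higher on the high arrays, with 11.01 to 11.39 and a median of 11.17 against 10.69 to 11.02 and a median of 10.87 on the low arrays. The ranges met only at their ends. The difference was 0.33 with an SE of 0.06 (adjusted p = 4.29e-05). Psmc5, another ATPase of the same ring, was 11.39 to 11.82 with a median of 11.57 on the high arrays and 11.76 to 12.29 with a median of 12.03 on the low ones, a difference of -0.44 with an SE of 0.08 (1.35-fold lower, adjusted p = 3.97e-05). The remaining 4 base ATPases were not called, with differences from a value that rounds to 0 (Psmc6) to 0.17 (Psmc2). In isoflurane alone 3 of these 4 were called higher, Psmc1 by 0.33 (adjusted p = 0.0221), Psmc2 by 0.42 (adjusted p = 0.0039) and Psmc3 by 0.30 (adjusted p = 0.0488). In oxygen alone those 3 were at -0.07, -0.09 and -0.10 and were not called. Without the 4 isoflurane arrays that stood apart, they differed between the sets by -0.02, -0.03 and -0.06. For Psmc6, a second bright probe set gave -0.29 with an SE of 0.12 (adjusted p = 0.0412).

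Psmd1, a large scaffold subunit of the base, was lower on the high arrays, by a log2 difference of -0.34 with an SE of 0.10 (adjusted p = 0.00473). Its difference was -0.13 in oxygen alone and -0.54 in isoflurane alone. In the lid, Psmd14, the subunit that cuts ubiquitin off the substrate, was higher by 0.31 with an SE of 0.08 (adjusted p = 0.00279), and its other tested probe sets gave 0.65 (adjusted p = 0.00991) and 0.49 (adjusted p = 0.000126). Psmd12, another lid subunit, was lower by a log2 difference of -0.12 with an SE of 0.05 (adjusted p = 0.0498), a call lost in 15 of the 20 fits that left out 1 array. The other 6 lid genes were not called, Psmd8 differing by -0.04 with an SE of 0.06 (adjusted p = 0.526).

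Of the activators that can replace the 19S cap, Psme4 was 8.55 to 9.8 with a median of 9.38 on the high arrays and 8.28 to 9.41 with a median of 8.85 on the low arrays. The ranges overlapped over most of their length. The difference was 0.47 with an SE of 0.14 (1.38-fold, adjusted p = 0.00662), and both other Psme4 probe sets were also called higher, by 0.56 and 1.03. Psme1 and Psme2 encode the subunits of PA28, a cap linked to the immunoproteasome. Psme2 was higher by 0.21 with an SE of 0.08 (adjusted p = 0.0308), a call lost in 6 of the 20 fits that left out 1 array (oxygen replicates 1, 2, 4 and 9, isoflurane replicates 4 and 8). Psme1 differed by -0.21 with an SE of 0.11 (adjusted p = 0.104). Psmf1, the proteasome inhibitor PI31, was level, at 9.92 to 10.32 with a median of 10.0 on the high arrays and 9.95 to 10.27 with a median of 10.03 on the low ones, with a difference of 0.02 and an SE of 0.06 (adjusted p = 0.768).

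Without the 4 isoflurane arrays that stood apart, 11 of the 44 genes were called between the sets, 7 higher and 4 lower, where 53.2% of probe sets were called. Of these 11, 9 were among the 15, and the others were Psmb7 and Psmd7, each lower on the high arrays. Psma3, Psmb10, Psmd1, Psmd12, Psmd14 and Psme2 were no longer called. The median over the 44 genes was then -0.03. Psma1, Psmc5, Psmd5, Psmd9 and Psmg1 kept their call and direction in all 34 alternative fits of this comparison, which include other scalings, filters, each array left out and each group alone. Adding the 3'/5' ratio as a covariate left 8 members called.

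**Figure D5:**
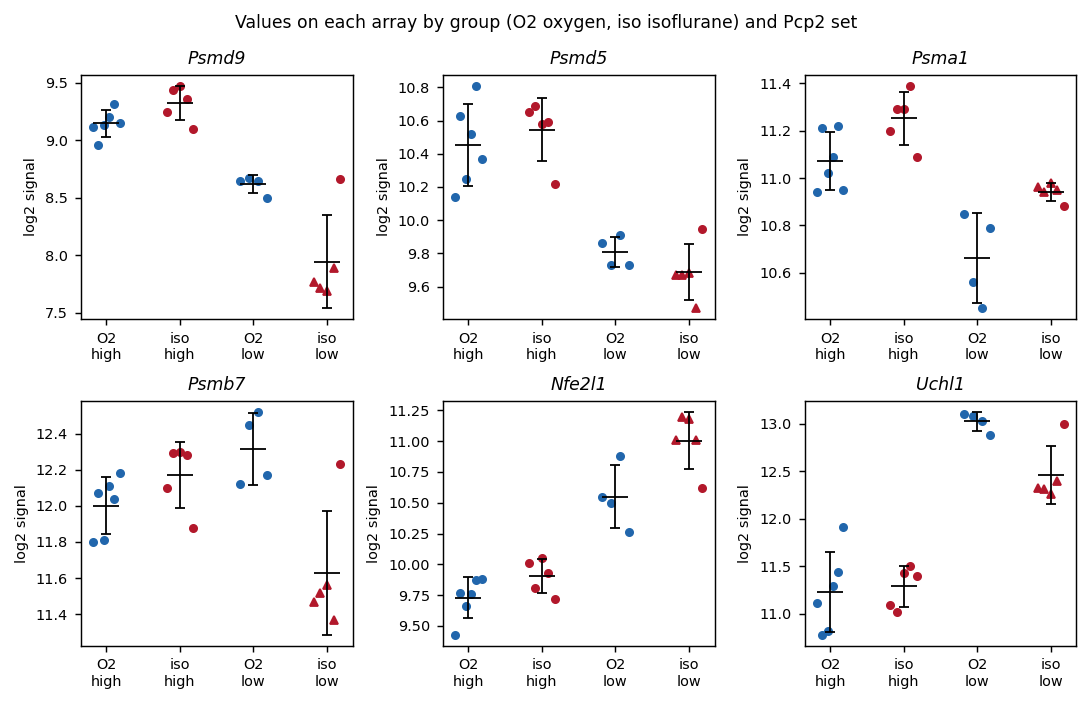
Log2 signal on each array of Psmd9, Psmd5, Psma1, Psmb7, Nfe2l1 and Uchl1 by group and Pcp2 set, with horizontal marks for the mean and bars of 1 SD; triangles are isoflurane replicates 2, 4, 5 and 6, and the vertical axes do not start at 0. Psmd9, Psmb7 and Uchl1 are lower on the triangles than on the other low Pcp2 arrays, and Nfe2l1 is higher on every low Pcp2 array than on every high one.

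The genes that feed and regulate the proteasome were taken from a list of 54, of which 42 were tested. None of the 4 ubiquitin genes has a probe set of its own, and Tap1, Ifit3 and Gbp2 fell under the filter. Between the sets 20 of 42 were called, 10 higher and 10 lower on the high arrays, where 60.8% of all probe sets tested were called (36% higher, 24.8% lower). Nfe2l1 was 9.43 to 10.05 with a median of 9.81 on the high arrays and 10.26 to 11.2 with a median of 10.88 on the low ones, with no overlap and a difference of -0.97 with an SE of 0.09 (1.95-fold lower, adjusted p = 1.11e-08). Ngly1, the enzyme that removes sugar chains from Nfe2l1 and activates it, went the other way, by 0.51 (adjusted p = 3.13e-07).

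Uchl1, a neuronal deubiquitinase, was 10.78 to 11.91 on the high arrays and 12.26 to 13.1 on the low arrays, a difference of -1.48 with an SE of 0.14 (2.78-fold lower, adjusted p = 1.26e-08). Usp14, a deubiquitinase that sits on the 19S base, was lower by a log2 difference of -0.53 (adjusted p = 2.01e-07), and Pomp, the maturation factor of the core, by -0.25 (adjusted p = 0.0128). Vcp, the ATPase that pulls ubiquitinated proteins from complexes, differed by 0.07 (adjusted p = 0.24). Its partners Faf1 and Ufd1 were higher by 0.62 (adjusted p = 1.63e-06) and 0.40 (adjusted p = 3.27e-06). Of the shuttles, Ubqln1 was higher by 0.41 (adjusted p = 1.81e-05), while Ubqln4 was lower, at -0.70 (adjusted p = 4.04e-06), and Ubqln2 was lower, at -0.24 (adjusted p = 0.00132). Akirin2, which brings proteasomes into the nucleus, was higher by 0.86 with an SE of 0.19 (adjusted p = 0.000639).

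Between isoflurane and oxygen with the set as a covariate, 6 of the 42 were called, 1 higher and 5 lower, where 7.37% of all probe sets tested were called (2.58% higher, 4.79% lower). Adrm1, a ubiquitin receptor of the 19S base, was 9.42 to 10.3 with a median of 9.78 in oxygen and 8.94 to 10.17 with a median of 9.25 in isoflurane. The ranges overlapped over much of their length. The difference was -0.54 with an SE of 0.13 (1.45-fold lower, adjusted p = 0.0246), at -0.46 on the high arrays (adjusted p = 0.369) and -0.63 on the low arrays (adjusted p = 0.0227). The ligases Huwe1 and Ubr4 fell by 0.27 (adjusted p = 0.0194) and 0.36 (adjusted p = 0.0457) on the log2 scale, as did Nploc4, a Vcp cofactor, by 0.32 (adjusted p = 0.0337) and the shuttle Ubqln4 by 0.36 (adjusted p = 0.035). Ecpas, a proteasome adaptor, rose by 0.29 with an SE of 0.08 (adjusted p = 0.0308). Nfe2l1 differed by 0.30 with an SE of 0.09 and fell just short of the threshold (adjusted p = 0.0506). Without the 4 arrays that stood apart none of the 42 was called, and Adrm1 differed by -0.42 (adjusted p = 0.235).

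On the high arrays none of the 42 was called. On the low arrays 13 were, 4 higher and 9 lower, where 18.6% of all probe sets tested were called (11.2% higher, 7.42% lower). Uba1, the main enzyme that activates ubiquitin, was 11.8, 11.96, 11.87 and 12.01 in oxygen, 10.81, 10.77, 10.95 and 10.87 on isoflurane replicates 2, 4, 5 and 6 and 11.8 on replicate 10. The 4 arrays that stood apart lay below every oxygen array, and replicate 10 matched the lowest of them. The difference was -0.87 with an SE of 0.19 (1.82-fold lower, adjusted p = 0.0138). Ube2r2, a conjugating enzyme, ran opposite, at 10.2, 10.02, 9.91 and 10.43 in oxygen, 11.57, 11.38, 11.62 and 11.3 on those 4 arrays and 9.95 on replicate 10, with a difference of 1.02 and an SE of 0.30 (2.03-fold, adjusted p = 0.0353). Again replicate 10 sat with the oxygen arrays. Uchl1 fell by 0.57 on the log2 scale (adjusted p = 0.0232) and Ube2n, another conjugating enzyme, by 0.82 (adjusted p = 0.0139), while the deubiquitinase Usp7 rose by 0.61 (adjusted p = 0.017).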

How the data were processed

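The deposited intensities are linear signals of 1-colour Affymetrix arrays. The submitters' processing notes name MAS5 and Expression Console, and their settings are not given in the sources used here. Deposited values were scaled per array (trimmed mean 500.1 to 500.2), so differences are relative to an array's average signal. Values under 1 were raised to 1 and log2 was taken. Of 31042 probe sets that are not controls, 18625 with a mean above the 40th percentile (6.62) entered lmFit and eBayes (trend, two-sided) of limma 3.58.1, run under R 4.3.3. Groups and replicate numbers came from the titles. Fits were tested on simulated data in which 200 of 18625 probe sets were changed. A log2 change of 0.25 was recovered in 0% of cases within the high or the low set. A change of 0.5 was recovered in 14% and 12%. With both sets in 1 fit these shares were 14% and 60%, between the sets 6% and 48%. For the difference between sets in what isoflurane did they were 2% and 6%. The simulation changed few probe sets, so its shares need not hold where many differ. Between the sets, where 60.8% of probe sets tested were called, Psmg2 was called at 0.24. Summaries and plots used Python 3.11.15, pandas 2.3.3, numpy 2.4.6 and matplotlib 3.10.9.

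The members, the list of 54 other genes, the sets and the alternatives were chosen with earlier results of these data known. Named are members called in a comparison, the lowest p of each role, Psmb1, Psmd8, catalytic subunits, activators, Psmf1, the 6 lowest p per direction of the other genes, and Pomp, Nfe2l1, Usp14, Uchl1, Vcp and Adrm1. Others were named after their values were seen. No 2 arrays held the same values. Replicate numbers do not pair the arrays.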

Additional observations from a re-analysis of the deposited data

Results flagged for a closer look

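On single arrays, 10 of 176 gene and group combinations had a highest or lowest array far from the rest, where chance at 1 in 20 gives 8.8, so the number is near what chance gives. Values are log2 signals, each with the nearest other array of its group. Oxygen replicate 10 of the high set was lowest for Psma3 (10.28, nearest 10.62). Oxygen replicate 4 of the low set was lowest for Psmd11 (11.04, nearest 11.58) and Psmd9 (8.5, nearest 8.65) and highest for Psmf1 (10.2, nearest 10.0). Oxygen replicate 3 was lowest for Psmg2 (9.28, nearest 9.47). Isoflurane replicate 9 of the high set was highest for Psmd7 (11.6, nearest 11.48) and lowest for Psmd5 (10.22, nearest 10.58). Isoflurane replicate 6 of the low set was highest for Psmd10 (10.17, nearest 9.95). Isoflurane replicate 10 of the low set was highest for Psmb7 (12.23, nearest 11.56) and Psmd9 (8.66, nearest 7.89). Its mean correlation was 0.951 with the low oxygen arrays and 0.917 with the 4 arrays that stood apart. Its summed cerebellar and cortical markers (4871 and 2251) lay outside the low oxygen ranges (668 to 1567 and 2945 to 3204). Its summed microglial markers (4379) lay within theirs (3971 to 5761).

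The difference between isoflurane and oxygen was itself different in the 2 sets (limma, high minus low, log2) for Psmb7 (0.849), Psmd9 (0.849), Psmb4 (0.737), Psmc2 (0.501), Psmd2 (0.471) and Psmd7 (0.433). Of the other genes of the pathway, it was different for Ube2n (0.843, adjusted p = 0.0124), Uba1 (0.824, adjusted p = 0.0158), Fbxo7, an adaptor of a ubiquitin ligase (0.541, adjusted p = 0.0487), Usp7 (-0.626, adjusted p = 0.0174) and Ube2r2 (-1.31, adjusted p = 0.0235). These were 5 of the 42 tested, where 10.2% of all probe sets tested were called. In that order, isoflurane replicate 10 was at 10.92, 11.8, 10.46, 10.7 and 9.95, each within the low oxygen range. Isoflurane replicates 2, 4, 5 and 6 lay outside that range for each of these genes. Among the members, the calls of Psmc2 and Psmd2 were lost in 14 and 16 of the 20 fits that left out 1 array.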

How the results depend on the processing

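Counts are members called out of 44. Where no share of all probe sets called is given, here or above, a count shows only how far calls moved between fits. It does not compare members with other genes. With both sets in 1 fit the count of 1 was 2 with quantile normalization, 3 with array weights, 0 with arrays centred on their medians, 0 without the 4 arrays that stood apart, 0 without the set as a covariate and 0 to 5 with each array left out. With the replicate number as a block beside the set it was 0. The numbers do not pair the arrays, since 2 of 10 pairs had a correlation of deviations over 0.1 (range -0.26 to 0.23) and 0 oxygen arrays lay closest to their own number. In the high set the count of 0 was 8 with array weights and 0 to 2 with each array left out. In the low set the count of 5 was 8 with median centring, 3 without the filter, 3 without the eBayes trend, 3 with the mean of a gene's probe sets, 10 with array weights, 0 with the 3'/5' ratio as a covariate, 0 without the 4 arrays and 0 to 10 with each array left out. Psmd9 there turned from -0.67 to 0.04 without the 4 arrays, a fit with 1 isoflurane array. With quantile normalization, 3 members were called higher and 4 lower in the low set, Psmd2 not among them. Between the sets the count of 15 was 8 with the 3'/5' ratio and 13 to 17 with each array left out. For the difference between sets the count of 6 was 14 with median centring, 15 with array weights, 0 with the 3'/5' ratio, 0 without the 4 arrays and 3 to 10 with each array left out. The cause was not tested, except that fewer arrays were used where arrays were left out. A lower and a higher dividing value for Pcp2 gave the same sets. Any value between 1632.5 and 12435.8 must do so, because no array lay there. The number of arrays limits the precision, and dim signals cannot be told from background.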
